A study of Mus musculus with 35 samples.

Results

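Control mouse embryonic fibroblasts (MEFs) harvested at 8 h were compared with control MEFs harvested at 0 h, using the 4 arrays of each group, 8 of the 35 arrays in the series. All 8 arrays carried RNA of primary C57BL6/J MEFs grown in DMEM with serum at low oxygen, without any MMS (methyl methanesulfonate, the alkylating agent given to the other arm of the study). The control 8 h cultures had been kept in replenished medium, and the control 0 h cultures were the starting point of the time course. The remaining groups placed this comparison and added to the estimate of the spread. They were control cells at 1, 24 and 72 h and cells given 40 μg/mL MMS for 1, 8, 24 or 72 h. The MMS 72 h arrays entered only the spread and the choice of genes tested. The sources do not say whether replicates were separate cultures, nor whether cultures of different times came from the same embryos. The p-values therefore measure the spread between arrays within a group, pooled over all 35 arrays in 9 groups. Embryo age and passage number are given differently by the sample labels and the methods of the study and are not used here. MEFs are made by dissociating embryo bodies after removal of the head and liver and plating what attaches. The cultures are therefore dominated by connective tissue fibroblasts, which secrete collagen and keep the positional HOX code of the part of the body they came from. Early passages can hold other attached cells, most often macrophages, and replacing the medium re-exposes the cells to serum factors that switch on early response genes and then cell cycle genes.

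The control 8 h cultures differed from the control 0 h cultures across most of the transcriptome. Of 14134 genes tested, 5055 were higher and 3336 were lower at 8 h (adjusted p under 0.05, limma), which is 35.8% and 23.6% of the genes tested, 59.4% in all. At a fold of 2 or more, 668 genes were higher (4.73%) and 629 were lower (4.45%). The arrays of both groups did not overlap for 3796 genes on the higher side (26.9%) and 2799 on the lower side (19.8%). With more than 1 in 2 genes called, a call alone says little about any list, and the counts below are read against these shares and against the median difference of all genes tested, 0.086 on the log2 scale. By contrast, control cells at 24 h against 0 h gave 1289 genes higher (9.12%) and 291 lower (2.06%), of which 17 (0.12%) and 7 (0.0495%) reached a fold of 2. Control cells at 1 h against 0 h gave 1023 higher (7.24%) and 619 lower (4.38%). These comparisons share the 0 h arrays.

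The 8 h arrays stood apart from the times on both sides. Control 8 h against control 1 h gave 5087 genes higher (36.0%) and 3478 lower (24.6%), and control 8 h against control 24 h gave 4915 higher (34.8%) and 3743 lower (26.5%). Of the 5055 genes higher at 8 h than at 0 h, 3753 (74.2%) were also called higher than at both 1 h and 24 h, and of the 3336 lower genes, 2687 (80.5%) were also called lower than at both. These counts share the 8 h arrays. The MMS-treated arrays, which share none with the control groups, gave 6575 genes higher (46.5%) and 4424 lower (31.3%) at 8 h than in the mean of MMS 1 h and MMS 24 h. Of the genes called in control cells at 8 h, 3751 of the higher and 2580 of the lower ones were called the same way there. That MMS comparison also holds the change of the MMS effect with time. In it, 25 of 35 ATF4 response genes were higher and 3 lower, against 3 and 18 in control 8 h against 0 h. Time in fresh medium cannot be told apart from any other way in which the 8 h cultures were prepared or handled.

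Control 0 h replicate 3 held transcripts of intestinal epithelium. The mean log2 level over 25 intestinal markers lay between 4.38 and 4.54 in the 4 control 8 h arrays, against 11.54 in this array and 4.27 to 4.56 in the other 3 control 0 h arrays. Vil1, the actin bundler of intestinal microvilli, averaged 3.53 at 8 h, against 11.62 in that array. The mean over genes of antigen presentation was 6.64 to 6.82 at 8 h, against 9.55 in the same array and 6.44 to 6.53 in the other 0 h arrays. Without it, 4690 genes were higher (33.2%) and 3282 lower (23.2%) at 8 h, and 4353 of the 5055 and 3069 of the 3336 called genes were called the same way. Where this array moved a named gene's fold by over 1.5 times, the value without it is given below. Pairs of control 8 h arrays correlated at 0.994 to 0.996 across genes, and pairs of 0 h arrays at 0.909 to 0.998. On the platform's own probe sets for the 3′ and 5′ end of Gapdh, the 3′ signal minus the 5′ signal was 0.01 to 0.08 on the log2 scale at 8 h, against -0.10 to -0.01 at 0 h. For Actb it was 0.20 to 0.24 at 8 h, against 0.16 to 0.26 at 0 h. For Tfrc it was 1.67 to 1.97 at 8 h, against 1.97 to 2.3 at 0 h, a shift the other way from Gapdh.

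Probe sets of the same gene disagreed more often in comparisons that involve 8 h arrays. Of 3773 genes with 2 or more called probe sets in control 8 h against 0 h, 1167 (30.9%) had probe sets called in opposite directions, and 32 of them by a fold of 2 or more each way. The share was 28.1% against control 1 h, 28.8% against control 24 h and 31.0% for MMS 8 h against MMS 1 h and 24 h. It was 7.80% for control 1 h, 1.39% for control 24 h and 8.84% for control 72 h, each against control 0 h. Of the 250 genes chosen to be named, 122 had another tested probe set and 15 had probe sets called in opposite directions. Where the probe set used for a named gene was contradicted, the other value is given beside it. Restricted to genes whose called probe sets all went one way, a restriction chosen after seeing the data, 4495 genes were higher and 2917 lower, of which 628 and 581 reached a fold of 2.

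**Figure D1:**
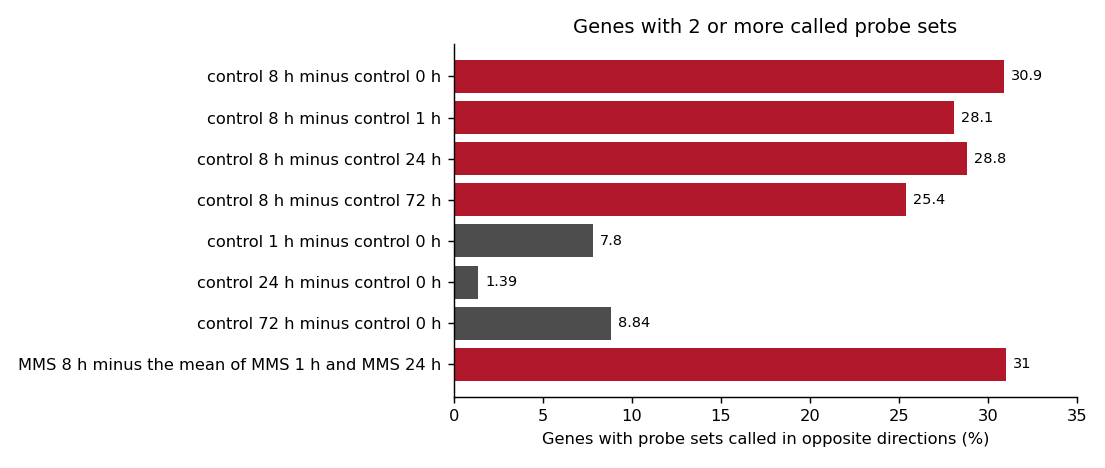
Percentage of genes with 2 or more called probe sets whose called probe sets went in opposite directions, for each comparison (red, comparisons of 8 h arrays with arrays of another time; grey, comparisons without 8 h arrays). The comparisons with 8 h arrays lie between 25.4% and 31.0%, and the others between 1.39% and 8.84%.

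Macrophage genes made up the clearest rise. All 25 macrophage markers tested were called higher at 8 h and none lower, and 22 of them rose by a fold of 2 or more, with a median log2 difference of 3.04 (all genes, 0.086). A gene was tested where its mean reached log2 4.40 in at least 1 group, the limit below which signal is near background, and of the markers in the list Itgam and Aif1 lay under it. The mean log2 level over the 25 markers was 7.67 to 7.87 in the 4 control 8 h arrays, 4.49 to 4.56 in 3 of the control 0 h arrays and 5.64 in control 0 h replicate 3. Without that array, all 25 were again called higher, with a median of 3.36. The same 25 were called higher at 8 h than at 1 h and at 24 h, and in MMS 8 h against MMS 1 h and 24 h. Of the 25, 10 reached the limit only in 8 h arrays and so had to be higher there, and the other 15, which reached it at another time too, were all called higher. In bulk RNA, more macrophages and more macrophage RNA per cell cannot be told apart.

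Mpeg1, which encodes the pore-forming perforin-2 of phagocytes, read 9.62, 9.30, 9.70 and 9.64 on the log2 scale in control 8 h arrays, against 4.16, 4.39, 5.95 and 4.31 in control 0 h arrays. Every 8 h array lay above every 0 h array, the highest 0 h value being that of replicate 3. The difference was 4.86 ± 0.21 (SE, adjusted p = 5.3e-18), and 5.28 without replicate 3. Tyrobp, the DAP12 adaptor of activating receptors, read 9.73, 9.54, 9.77 and 9.68 at 8 h, against 4.60, 4.8, 5.84 and 4.35 at 0 h, a difference of 4.78 ± 0.18 (adjusted p = 1.4e-19), and 5.10 without replicate 3. C1qb, a chain of the complement component C1q, rose by 4.52 ± 0.18 (adjusted p = 1.4e-18), or 4.87 without replicate 3, against a 0 h mean of 4.05 that is under the limit, and its other probe sets differed by 3.34 and 4.72. C1qb was also under the limit in control cells at 1, 24 and 72 h (3.68, 3.67 and 3.77). The same held in MMS-treated cells at 1 and 24 h (3.71 and 3.56), so its p-value lends the rise no support. At the other control times Mpeg1 lay near its 0 h level and averaged 4.31 at 1 h, 4.16 at 24 h and 4.35 at 72 h. Csf1r, the receptor of the growth factor that macrophages need to survive, read 9.83, 9.87, 9.81 and 9.86 at 8 h, against 5.98, 5.79, 7.61 and 5.82 at 0 h, a difference of 3.54 ± 0.23 (adjusted p = 4.4e-14), and 3.98 without replicate 3, with its other probe sets at 0.67 and 2.52. Adgre1, the F4/80 antigen of mature mouse macrophages, averaged 7.0 ± 0.13 at 8 h and 4.64 ± 0.17 at 0 h (SD, n = 4 each) and was not raised in replicate 3, which read 4.68.

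Some markers were carried into control 0 h replicate 3 as well. Ctss, the lysosomal protease cathepsin S, read 10.28, 10.19, 10.05 and 10.28 at 8 h, against 3.80, 3.66, 9.72 and 3.76 at 0 h. The 8 h arrays stayed above all 0 h arrays, but the difference was 4.97 ± 0.82 with replicate 3 and 6.46 without it. Ptprc, the pan-leukocyte antigen CD45, read 6.49, 6.11, 6.48 and 6.46 at 8 h, against 3.57, 3.27, 7.65 and 3.55 at 0 h. For Ptprc the groups overlap, because replicate 3 exceeded every 8 h array. Its difference was 1.87 ± 0.55 (adjusted p = 0.0045) with that array and 2.92 (adjusted p = 1.6e-09) without it. Lyz2, the macrophage lysozyme, rose by 5.28 ± 0.29 (adjusted p = 2.2e-15) and its near-identical paralogue Lyz1 by 4.83 ± 0.65 (adjusted p = 2.3e-07). Without replicate 3, which read 11.06 for Lyz1 against 6.33 to 6.97 in the other 0 h arrays, the differences were 5.88 for Lyz2 and 5.95 for Lyz1. Short array probes may not separate these paralogues, so the pair is read as lysozyme M and P together. Clec4d, a C-type lectin of myeloid cells outside the list, rose by 4.68 ± 0.09 (adjusted p = 1.1e-26), with 8.39 to 8.55 at 8 h and 3.55 to 3.93 at 0 h. Its 0 h values were under the limit, as were its means of 3.75, 3.56 and 3.69 in control cells at 1, 24 and 72 h. It was named for being among the 12 largest rises, so its p-value is no separate support.

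**Figure D2:**
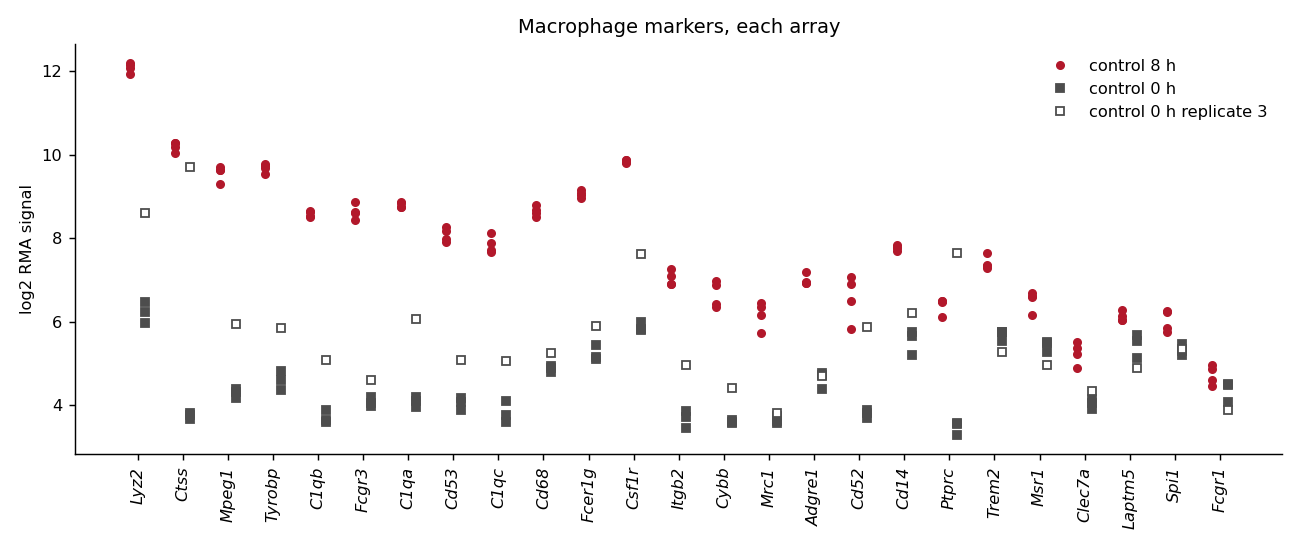
Log2 RMA signal of the 25 macrophage markers on each array, in order of the difference (red circles, 4 control 8 h arrays; grey squares, control 0 h arrays; open squares, control 0 h replicate 3). The 8 h arrays lie above all 0 h arrays for 22 of the markers, and replicate 3 lies far above the other 0 h arrays for Lyz2, Ctss and Ptprc.

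Many myeloid genes are driven by PU.1, an ETS factor encoded by Spi1 that binds purine-rich DNA. Spi1, a member of the list, rose by 0.70 ± 0.15 (adjusted p = 0.00014). The 6 letters GAGGAA, searched on both strands over the 250 bases upstream of each RefSeq gene start, were present for 12 of the 16 macrophage markers that have a promoter in the table (75%), and for 6986 of 27025 genes (25.9%). The 7 letters AGGAAGT, which can overlap GAGGAA, were present for 6 of the 16 (37.5%) and for 2377 genes (8.80%). A match describes letters only, and binding was not measured. The 150 bases directly upstream of the start of 3 of these markers are shown as examples. They are read 5′ to 3′ on the gene's strand from RefSeq sequence of GRCm38.p6, with GAGGAA and also AGGAAGT and their reverse complements in capitals.
C1qb, chr4:136886201-136886350, minus strand: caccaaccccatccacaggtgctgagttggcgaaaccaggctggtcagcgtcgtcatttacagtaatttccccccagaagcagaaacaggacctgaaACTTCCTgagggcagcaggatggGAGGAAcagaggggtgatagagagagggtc
Cd53, chr3:106790150-106790299, minus strand: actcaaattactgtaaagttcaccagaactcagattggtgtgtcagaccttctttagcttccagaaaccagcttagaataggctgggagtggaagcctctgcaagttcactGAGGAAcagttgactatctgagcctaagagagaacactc
Lyz2, chr10:117282273-117282422, minus strand: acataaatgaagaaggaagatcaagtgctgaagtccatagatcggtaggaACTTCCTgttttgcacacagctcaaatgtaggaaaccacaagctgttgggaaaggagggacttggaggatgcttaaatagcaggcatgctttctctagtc

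Few genes of the mesothelium, the lining of body cavities, could be tested. Of the 10 genes in the list 5 were tested, and 3 of these reached the limit only in 8 h arrays and so had to be higher there, which leaves too few for a statement on the list. Bnc1, a zinc finger factor of mesothelium and squamous epithelium, read 5.62, 6.24, 6.03 and 6.37 at 8 h, against 3.19, 3.52, 3.13 and 3.34 at 0 h, a difference of 2.77 ± 0.13 (adjusted p = 4.3e-17). Msln, mesothelin, averaged 5.24 ± 0.31 at 8 h and 3.78 ± 0.20 at 0 h, a difference of 1.46 ± 0.13 (adjusted p = 7.3e-11). Both genes are among the 3 that reached the limit only in 8 h arrays, so their p-values lend the rise no support. Both were under the limit at 0 h, so that these differences are those of the fitted values. Wt1, the factor that defines this lineage, lay under the limit, at 4.2 at 8 h and 3.51 at 0 h. Of 11 skeletal muscle genes, 7 were called higher and none lower, and of the 9 that reached the limit at a time other than 8 h, 5 were called higher, with a median of 0.67. Acta1, skeletal alpha-actin, read 12.90, 12.83, 13.03 and 12.90 at 8 h, against 10.40, 10.26, 10.20 and 10.45 at 0 h, a difference of 2.59 ± 0.09 (adjusted p = 6e-20), and Des, the muscle filament protein desmin, rose by 1.59 ± 0.09 (adjusted p = 6e-15). The myogenic factors Myod1 and Myog, which define the lineage, both stayed under the limit, with means of 4.11 at 8 h.

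The remaining cell type lists had few calls or calls in both directions. Of 9 endothelial genes 3 were called higher and 1 lower, of 5 lymphocyte genes 2 and none, of 8 neuronal genes 2 and 2, and of 12 smooth muscle genes 2 and 3. Schwann cell and glial genes gave 5 of 8 higher and 2 lower, and 2 higher and 1 lower without control 0 h replicate 3. Cartilage gave 4 of 10 higher and 3 lower, fat cells 2 of 6 and 1, stratified epithelium 3 of 7 and 3, bone 2 of 4 and none, the red cell lineage 2 of 4 and none, and mast cells and granulocytes 3 of 7 and none, 5 of these 7 having reached the limit only in 8 h arrays. Several other lists held such members too. Without them, 2 of 8 cartilage genes were higher and 3 lower, and 2 of 6 stratified epithelium genes were higher and 3 lower. Likewise, 1 of 4 lymphocyte, 1 of 3 bone, 1 of 2 red cell and 1 of 2 mast cell genes were higher and none lower. Osteoclast genes gave 3 of 7 higher and none lower. The defining endothelial genes Pecam1 and Cdh5 were under the limit, and the T cell gene Cd3e differed by 0.04 (adjusted p = 0.77). Of 25 intestinal genes, none was called higher and 1 lower, with a median of -1.91 that fell away to 0.03 without control 0 h replicate 3. The liver marker Alb averaged 4.03 at 8 h, against 10.23 in that replicate. For simple epithelium the median was -0.44 with replicate 3 and 0.24 without it.

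Among Y-linked genes, Eif2s3y also set the 8 h cultures apart. Eif2s3y, a Y-linked translation initiation factor subunit, read 6.77, 6.64, 6.77 and 6.59 at 8 h, against 4.25, 4.23, 6.30 and 4.77 at 0 h, a difference of 1.81 ± 0.28 (adjusted p = 1.9e-06) and of 2.28 (adjusted p = 1.9e-11) without replicate 3. The 8 h arrays lay above all 0 h arrays, and replicate 3 was the closest. Its mean was 4.65 at 1 h, 4.53 at 24 h and 4.5 at 72 h, against 6.69 ± 0.09 at 8 h. Kdm5d, a Y-linked histone demethylase, differed by 1.65 ± 0.20 (adjusted p = 4.3e-08), with a 0 h mean of 3.53, under the limit. Kdm5d reached the limit only in 8 h arrays and so had to be higher there. The probe set used for Uty, another Y-linked demethylase, stayed under the limit throughout. Another Uty probe set averaged 4.61 at 8 h and 3.50 at 0 h, which is under the limit, a difference of 1.10 (adjusted p = 1.6e-06). Xist, the RNA that coats the inactive X chromosome, was not called, at -0.17 ± 0.33 (adjusted p = 0.67), but of its other probe sets 1 differed by -2.02 and the other by -0.05. The share of male cells in the cultures was not tested.

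HOX genes are expressed along the body axis in the order of their position in each cluster, low numbers toward the head and numbers from 10 upward in the tail and the ends of the limbs. Fibroblasts keep this code in culture. Of 26 HOX genes tested, 12 were called higher and 10 lower at 8 h. Of the 17 genes numbered 2 to 9, 11 were higher and 3 lower, with a median of 0.85. Of the 9 genes numbered 10 to 13, 1 was higher and 7 were lower, with a median of -0.78, the higher one being Hoxc13. This grouping was made after the values were seen, and the genes also divided by cluster, with 6 of 6 Hoxb genes and 5 of 7 Hoxc genes higher, against none of 7 Hoxa genes and 1 of 6 Hoxd genes. Of the Hoxa genes 5 were lower, among them Hoxa5 (-0.54) and Hoxa9 (-0.44), and of the Hoxd genes 4 were lower. Hoxd10 read 5.96, 5.99, 5.64 and 6.10 at 8 h, against 7.82, 7.87, 7.54 and 7.99 at 0 h, a difference of -1.88 ± 0.10 (adjusted p = 2.4e-16). Every 8 h array lay below every 0 h array, and the mean was 7.86 at 1 h, 8.16 at 24 h and 8.36 at 72 h. Hoxd11 fell by 1.58 ± 0.16 (adjusted p = 7.3e-10), to a mean of 4.28 at 8 h, which is under the limit, against 5.86 at 0 h. In the other direction Hoxc9 read 7.64, 7.58, 7.72 and 7.70 at 8 h, against 6.56, 6.49, 5.91 and 6.51 at 0 h, a difference of 1.29 ± 0.10 (adjusted p = 8.4e-12), and Hoxb2 rose by 1.24 ± 0.08 (adjusted p = 7.3e-14).

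**Figure D3:**
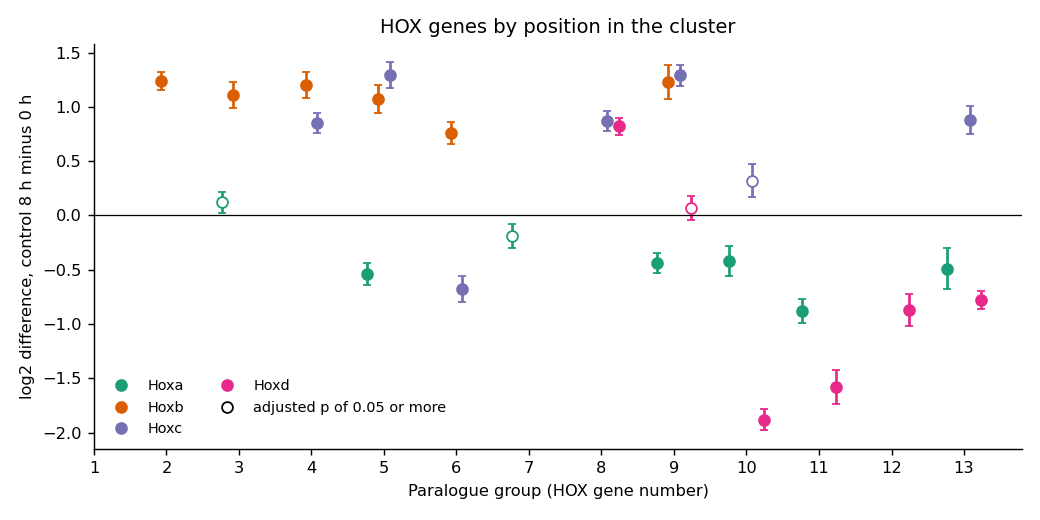
Log2 difference of each tested HOX gene, control 8 h minus control 0 h, against its number in the cluster (points, estimates from 4 arrays a group, coloured by cluster; bars, SE; open points, adjusted p of 0.05 or more). Of the genes numbered 2 to 9, 11 of 17 were called higher, and of those numbered 10 to 13, 7 of 9 were called lower.

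Factors that lay out the limbs and trunk divided as well, with 8 of 20 called higher and 7 lower. Of the 20, 2 reached the limit only in 8 h arrays. Of the other 18, 6 were called higher and 7 lower. Tbx4 and Pitx1 specify the hindlimb. Tbx4 read 6.42, 6.58, 6.19 and 6.37 at 8 h, against 8.08, 7.88, 7.76 and 8.17 at 0 h, a difference of -1.58 ± 0.11 (adjusted p = 4.5e-13), and its other probe set fell by 2.06. Pitx1 differed by -1.54 ± 0.16 (adjusted p = 1e-09). Lmx1b, which patterns the dorsal limb, fell by 0.78 (adjusted p = 1.6e-07). Against these, Emx2, a homeobox factor of the urogenital tract, shoulder girdle and forebrain, read 7.95, 7.95, 8.10 and 8.08 at 8 h, against 6.08, 6.15, 5.87 and 5.99 at 0 h, a difference of 2.00 ± 0.08 (adjusted p = 4e-18). Irx5, an Iroquois factor, rose by 1.77 ± 0.08 (adjusted p = 1.6e-17) and the probe set used for Foxf1, a factor of the visceral mesoderm, by 1.20 (adjusted p = 2.8e-10), with another at -0.10. Whether the 8 h cultures came from other embryos or other parts of them was not tested.

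Fibroblast genes stayed high but shifted among themselves. Of 23 fibroblast markers, 8 were called higher and 12 lower, and their mean level was 11.05 to 11.11 at 8 h, against 11.20 to 11.28 in 3 of the 0 h arrays and 11.08 in replicate 3. Pdgfra, the PDGF receptor that marks most fibroblasts, read 8.74, 8.81, 8.95 and 9.19 at 8 h, against 6.82, 7.0, 7.28 and 7.17 at 0 h, a difference of 1.86 ± 0.11 (adjusted p = 1e-14). Thy1 rose by 0.75 ± 0.11 (adjusted p = 8.4e-07), and Dcn, the collagen-binding proteoglycan decorin, by 1.34 ± 0.10 (adjusted p = 3.4e-12). On the lower side, Ddr2, a receptor for fibrillar collagen, fell by 1.12 ± 0.07 (adjusted p = 1.1e-13) and Col5a1, a chain of type V collagen, by 1.12 ± 0.07 (adjusted p = 1.1e-14).

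Matrix genes fell broadly. Of 24 collagen genes, 3 were called higher and 15 lower, with a median of -0.43 (all genes, 0.086). Col3a1, the chain of type III collagen, read 11.36, 11.26, 11.39 and 11.46 at 8 h, against 13.18, 13.25, 13.14 and 13.23 at 0 h. No array overlapped, and the difference was -1.83 ± 0.19 (adjusted p = 1.5e-09), with the other probe set at -2.51. Col11a1, a chain of type XI collagen, fell by 2.67 ± 0.11 (adjusted p = 1.8e-18). For Col1a1, the main chain of type I collagen, the probe set used fell by 2.75 ± 0.10 and another rose by 1.54, so no direction is read for it, while Col1a2, the partner chain, fell by 0.51 (adjusted p = 7e-06) and its other probe sets by 1.57 and 1.02. The 3 rises were 0.71 for Col7a1, 0.30 for Col4a5 and 0.24 for Col12a1, whose other probe set differed by -1.60, and without control 0 h replicate 3 only 1 collagen gene was called higher.

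Elastic fiber, crosslinking and proteoglycan genes included 2 of the 12 largest falls named, Ogn and Aspn, with 7 of 28 higher and 17 lower and a median of -0.51. Ogn, the small leucine-rich proteoglycan osteoglycin, read 5.12, 5.93, 5.72 and 5.96 at 8 h, against 10.63, 10.44, 10.26 and 10.84 at 0 h. It differed by -4.86 ± 0.18 (adjusted p = 2.9e-19), and its other probe set by -4.66. Its mean was 10.85 at 1 h, 10.65 at 24 h and 12.23 at 72 h. Aspn (asporin) and Fmod (fibromodulin), related proteoglycans that bind collagen fibrils, fell by 3.89 ± 0.27 (adjusted p = 2.7e-13) and 3.09 ± 0.12 (adjusted p = 8e-19). Eln, which encodes elastin, read 6.49, 6.06, 5.89 and 6.20 at 8 h, against 8.84, 8.98, 8.51 and 9.01 at 0 h, a difference of -2.68 ± 0.16 (adjusted p = 1.8e-14). Of the other large falls, Abi3bp, a matrix protein, differed by -4.79 ± 0.24 (adjusted p = 1.5e-16) to a mean of 3.54 at 8 h that is under the limit, Pappa, a protease that releases IGF from its binding proteins, by -4.41 ± 0.15 (adjusted p = 1.5e-20), and Rgs5, a G protein regulator of pericytes, by -3.88 ± 0.18 (adjusted p = 4.3e-17). All other tested probe sets of these 3 genes differed by -1.63 or lower. Rspo2, a WNT agonist of limb mesenchyme, fell by 3.70 ± 0.14 (adjusted p = 1.5e-19), but another probe set differed by 0.36.

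The proteases that degrade matrix went both ways, with 11 of 22 called higher and 8 lower. Of the 22, 2 reached the limit only in 8 h arrays. Of the other 20, 9 were higher and 8 lower, with a median of -0.07. Mmp12, the macrophage elastase, read 6.10, 6.07, 5.67 and 6.23 at 8 h, against 3.27, 3.31, 3.07 and 3.46 at 0 h, a difference of 2.74 ± 0.10 (adjusted p = 6.6e-20). Mmp13, a collagenase, differed by 2.79 ± 0.22 (adjusted p = 5e-12), and Serpinb2, the inhibitor PAI-2 made by macrophages and stimulated fibroblasts, by 4.45 ± 0.19 (adjusted p = 7.2e-18). All 3 were under the limit at 0 h, so their folds are those of the fitted values. For Mmp12 and Mmp13, no weight is placed on the p-values. Mmp2, the gelatinase that fibroblasts make constitutively, read 9.58, 9.82, 9.70 and 9.76 at 8 h, against 11.62, 11.60, 11.46 and 11.69 at 0 h, a difference of -1.87 ± 0.09 (adjusted p = 1e-16). Adamts5, an aggrecanase, fell by 3.23 ± 0.16 (adjusted p = 7.5e-17). Tfpi2, a secreted protease inhibitor of the matrix, was among the 12 largest rises named, with 10.34, 10.48, 10.54 and 10.55 at 8 h, against 5.0, 4.75, 5.43 and 5.23 at 0 h. Its difference was 5.38 ± 0.11 (adjusted p = 8.7e-26), and its means at 1 h, 24 h and 72 h were 5.56, 5.91 and 4.91. Among the other large rises, Dynap, a membrane protein linked to AKT signalling, rose by 4.97 against a 0 h mean under the limit, and Lce1h, a gene of the cornified skin envelope, by 4.44. The probe set of Pik3cd rose by 4.85, while its 3 other tested probe sets differed by -0.18 to 0.01, so no direction is read for the gene.

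**Figure D4:**
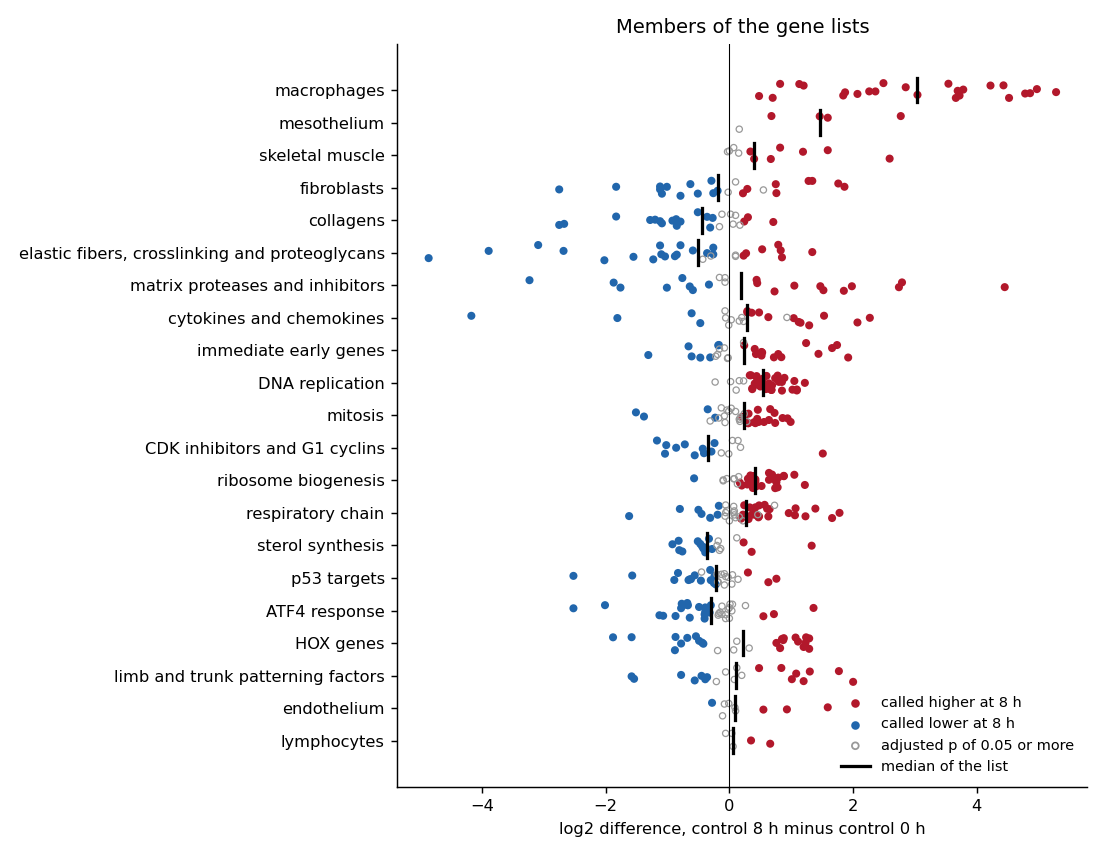
Log2 difference of every tested member of 21 gene lists, control 8 h minus control 0 h (red, called higher; blue, called lower; open grey, adjusted p of 0.05 or more; black bars, list medians; points are spread vertically for legibility). The macrophage list lies wholly above 0 with a median of 3.04, and the collagen and elastic fiber lists have medians of -0.43 and -0.51.

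Of 24 cytokine and chemokine genes, 12 were higher and 4 lower, with a median of 0.29 (35.8% and 23.6% of all genes were higher and lower, with a median of 0.086). Of the 24, 2 reached the limit only in 8 h arrays. Of the other 22, 10 were higher and 4 lower, with a median of 0.26. Il6 read 6.90, 7.34, 7.08 and 7.05 at 8 h, against 4.81, 4.65, 4.85 and 4.98 at 0 h, a difference of 2.27 ± 0.12 (adjusted p = 1.1e-15), and averaged 5.67 at 1 h and 5.53 at 24 h. Ccl9, a chemokine of macrophages, rose by 2.07 ± 0.11 (adjusted p = 1.5e-15) and Ccl2, which recruits monocytes, by 1.53 ± 0.11 (adjusted p = 7e-13). Il1rn, the antagonist of the IL-1 receptor, went the other way, with 5.16, 5.60, 4.96 and 5.35 at 8 h, against 9.35, 9.36, 9.36 and 9.68 at 0 h, a fall of 4.17 ± 0.13 (adjusted p = 3.5e-21) on the log2 scale. Ligands of the TGF-beta family were among the falls. Tgfb2 differed by -2.56 ± 0.13 (adjusted p = 1.1e-16), Tgfb3 by -2.07 ± 0.10 (adjusted p = 1.7e-16) and Bmp4 by -2.37 ± 0.18 (adjusted p = 1.4e-12), whereas Id2 and Id4, inhibitors of differentiation induced by BMP, rose by 1.82 and 1.60 (adjusted p = 1.9e-13 and 1.1e-15). Across that list of 17, 7 were higher and 8 lower.

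WNT and NOTCH genes gave 12 of 27 higher and 7 lower. Wnt4 rose by 1.91 ± 0.10 (adjusted p = 3.2e-16), and Wnt5a, a non-canonical WNT of growing limb and trunk, read 10.41, 10.28, 10.26 and 10.54 at 8 h, against 8.74, 8.88, 8.61 and 8.68 at 0 h, a rise of 1.65 ± 0.08 (adjusted p = 2.8e-17), with its other probe sets at -0.07 to 0.86. Rspo3, a WNT agonist, fell by 2.31 ± 0.12 (adjusted p = 2.4e-16), though its other probe set differed by 0.07. Of 26 growth factor and binding protein genes, 12 were higher and 12 lower, Igf1 rising by 1.29 in the probe set used and differing by -0.31 to 0.90 in the others, and Igfbp2, an IGF carrier, falling by 2.82 ± 0.10 (adjusted p = 1.1e-19). Of the 25 in that list that reached the limit at a time other than 8 h, 11 were higher and 12 lower.

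Early response genes were more often higher at 1 h than at 8 h. Of 28 immediate early genes, 14 were higher and 7 lower at 8 h than at 0 h, whereas at 1 h 23 were higher than at 0 h and none lower. Nr4a1, an orphan nuclear receptor induced within minutes by serum, averaged 7.83 ± 0.25 at 0 h, 12.55 at 1 h and 9.75 ± 0.14 at 8 h (SD, n = 4), a rise of 1.92 ± 0.16 from 0 h (adjusted p = 1.6e-11). Dusp5, a phosphatase that switches off ERK, rose by 1.44 ± 0.11 (adjusted p = 1.5e-12) and Dusp6 by 1.74 ± 0.16 (adjusted p = 1.1e-10). Egr1, by contrast, read 9.58, 9.85, 9.77 and 9.87 at 8 h, against 11.07, 11.18, 11.00 and 11.08 at 0 h, a difference of -1.31 ± 0.09 (adjusted p = 5.9e-13), having averaged 13.18 at 1 h.

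Cell cycle genes moved in both directions. DNA replication genes, which include those that load and fire origins, were 34 of 39 higher and none lower, with a median of 0.54 (0.51 without replicate 3). Cdc6, which loads the MCM helicase, read 7.91, 8.01, 7.93 and 8.11 at 8 h, against 6.90, 6.84, 6.70 and 7.16 at 0 h, a difference of 1.09 ± 0.11 (adjusted p = 6.8e-10). Gins1, a subunit of the GINS complex of the helicase, rose by 1.09 ± 0.12 (adjusted p = 7.1e-09), and Ung, uracil DNA glycosylase, by 1.22 ± 0.14 (adjusted p = 6.4e-09). Mitosis genes were mixed, with 18 of 37 higher and 4 lower and a median of 0.24. Birc5, which encodes survivin, rose by 0.99 ± 0.15 (adjusted p = 1.9e-06), while Cenpf, a kinetochore protein, fell to 6.03 ± 0.33 at 8 h, against 7.55 ± 0.14 at 0 h (SD, n = 4 each), with its other probe sets at -0.41 and -0.23. Cenpe, the kinetochore motor, fell by 1.38 ± 0.15 (adjusted p = 6e-09), and its other probe set differed by -0.18. At 24 h, against 0 h, 35 of the 39 replication genes and 36 of the 37 mitosis genes were higher. Of the CDK inhibitor and G1 cyclin genes, 1 of 16 was higher and 10 lower, the higher one being Cdkn1b, which encodes p27, at 1.51 ± 0.12 (adjusted p = 5.7e-12).

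E2F factors, which drive S phase genes, bind sites such as TTTGGCGC, and the related letters TTTCGCGC on the other strand can share bases with it. TTTGGCGC, on either strand of the 250 upstream bases, was present for 3 of 32 replication genes with a promoter in the table (9.38%) and 131 of 27025 genes (0.485%), and TTTCGCGC for 4 of the 32 (12.5%) and 81 genes (0.300%). Mcm6, a subunit of the MCM helicase, is shown as an example of the replication genes that carry both, which are Mcm5 and Mcm6, with the matches in capitals.
Mcm6, chr1:128359706-128359855, minus strand: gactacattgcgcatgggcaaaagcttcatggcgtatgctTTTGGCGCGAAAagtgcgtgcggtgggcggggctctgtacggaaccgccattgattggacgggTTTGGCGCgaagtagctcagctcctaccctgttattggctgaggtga

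Most ribosome biogenesis genes rose by less than a fold of 2. Of 33 ribosome biogenesis genes 25 were higher and 1 lower, with a median of 0.42, and 2 reached a fold of 2, Rrs1 at 1.22 (adjusted p = 3.1e-12) and Nop56 at 1.05 (adjusted p = 4.6e-14). The lower one was Ncl, nucleolin, at -0.57, whose other probe sets ran from -1.03 to 0.61. Respiratory chain genes were 24 of 44 higher and 7 lower, with a median of 0.27. Ndufa1, a subunit of complex I, rose by 1.78 ± 0.32 (adjusted p = 2.4e-05), whereas Sdhc, a subunit of complex II, fell by 1.62 ± 0.07 (adjusted p = 5.7e-18), with its other probe set at -0.33. Of the cytosolic ribosomal protein genes, 8 of 30 were higher and 4 lower, with a median of 0.10, close to that of all genes. Of the 3 that rose by a fold of 2 or more, Rpl37 read 10.82, 10.34, 10.73 and 10.44 at 8 h, against 8.28, 8.59, 7.15 and 8.49 at 0 h, a difference of 2.46 with replicate 3 and 2.13 without it, and Rpl38 rose by 2.09 ± 0.26 (adjusted p = 6.3e-08). Mt2, a metallothionein, rose by 2.64 ± 0.37 (adjusted p = 4.9e-07), and Pdia4, an ER disulfide isomerase, by 2.31 ± 0.08 (adjusted p = 1.3e-19). Each was the largest rise of a list that went both ways. For Mt2 this was the list of glucocorticoid and FOXO responses, with 6 of 20 higher and 7 lower and a median of -0.18. For Pdia4 it was the list of ER chaperones and degradation, with 12 of 28 higher and 9 lower and a median of 0.04. 

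Among the stress and lipid lists, more p53, ATF4 and sterol genes fell than rose. Of 29 p53 targets 3 were higher and 14 lower, with a median of -0.22, and Fas, the death receptor, read 5.93, 6.47, 6.0 and 6.11 at 8 h, against 7.55, 7.53, 7.94 and 7.76 at 0 h, a difference of -1.57 ± 0.11 (adjusted p = 2e-13). Of 35 ATF4 response genes, 3 were higher and 18 lower, with a median of -0.30. Aars, which charges alanine tRNA, differed by -2.01 ± 0.08 (adjusted p = 3.9e-18), with its other probe set at -0.55, and the probe set of Sesn2, a stress sensor of amino acid supply, by -2.52 ± 0.16 (adjusted p = 2.7e-14) with the other at -0.02. Of 20 sterol synthesis genes 3 were higher and 12 lower, with a median of -0.35, Sqle, squalene epoxidase, falling by 0.92 ± 0.08 (adjusted p = 3.5e-11). Insig1, which holds SREBP in the ER, rose by 1.33 ± 0.07 (adjusted p = 2e-15). Of the cholesterol efflux genes, 5 of 12 were higher and 1 lower. Of the 11 that reached the limit at a time other than 8 h, 4 were higher and 1 lower. Apoe, a lipid carrier made in quantity by macrophages, read 9.30, 9.35, 9.36 and 9.49 at 8 h, against 6.23, 6.02, 8.63 and 6.67 at 0 h, and differed by 2.49 ± 0.30 (adjusted p = 2.8e-08) with replicate 3 and by 3.07 without it. Among hypoxia response genes, 12 of 30 were higher and 7 lower, with Ankrd37 at 2.72 ± 0.19 (adjusted p = 3.6e-13) and Pfkl at -1.54 ± 0.11, whose other probe sets differed by -1.72 and 0.36.

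**Figure D5:**
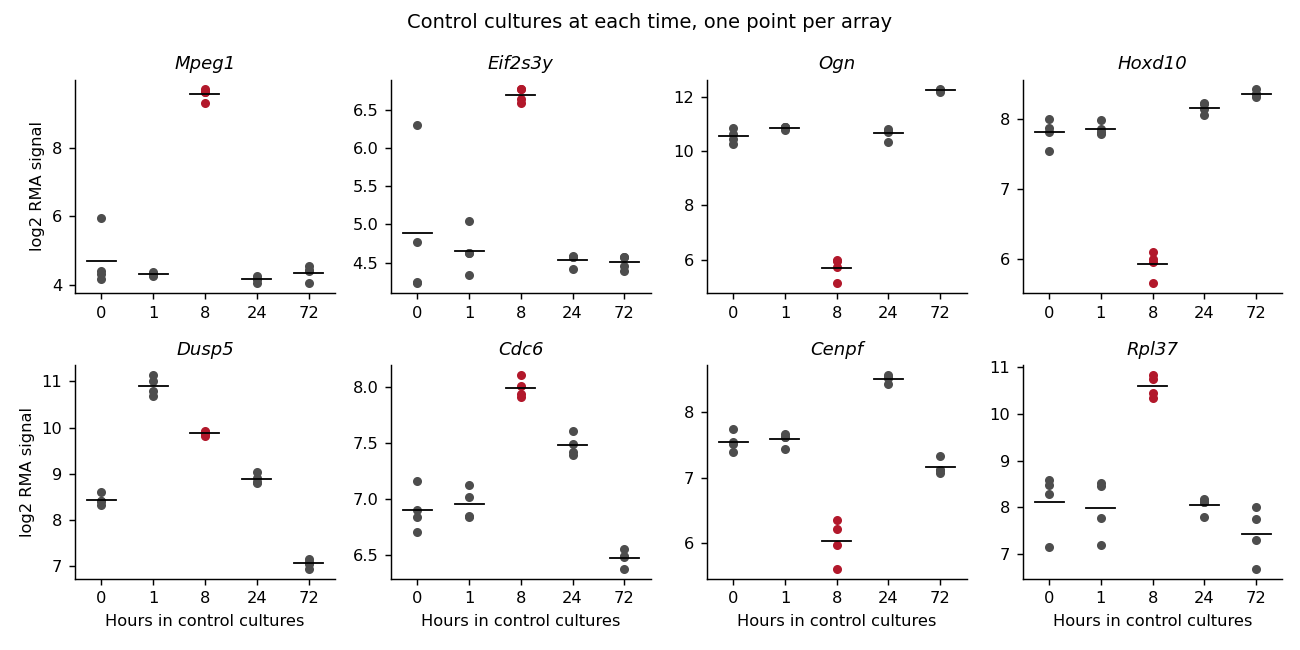
Log2 RMA signal of 8 genes on each control array at 0, 1, 8, 24 and 72 h (points, arrays; bars, means of 4; red, 8 h). The 8 h arrays of Mpeg1, Ogn, Hoxd10, Cenpf and Rpl37 do not overlap those of any other time, and Dusp5 is highest at 1 h, with a mean of 10.91.

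On the control time course, Ogn and Hoxd10 were lowest at 8 h and were also above 0 h at 72 h, with means of 12.23 and 8.36. Mpeg1 averaged 4.7 at 0 h, 9.57 at 8 h and 4.16 at 24 h. Cdc6 averaged 6.9 ± 0.19 at 0 h, 7.99 ± 0.09 at 8 h and 7.48 ± 0.1 at 24 h (SD, n = 4), and was thus also above 0 h at 24 h. At 24 h, against 0 h, none of the 25 macrophage genes was called higher and 2 were called lower. The 0 h values here include replicate 3, in which macrophage genes were raised. Without that replicate, Mpeg1 averaged 4.29 at 0 h.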

How the data were processed

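RNA from primary MEFs was hybridized to Affymetrix mouse arrays of 45101 probe sets. The authors deposited log2 values made with RMA (background correction, quantile normalization and summary of probes over all arrays); its version is not given in the sources used here. Quantile normalization gives all arrays the same distribution, so that differences are relative to the other genes. Array values ranged between 2.44 and 14.62 on the log2 scale and array medians between 4.98 and 5.09; precision is set by how many arrays a group has.

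A gene was represented by the probe set with the highest mean among those annotated to 1 symbol (34958 probe sets, 18194 genes), and 14134 genes were tested, those averaging at least log2 4.40 in some group, the 40th percentile over the table. limma 3.58.1 (R 4.3.3) fitted 9 groups over 35 arrays with 26 residual degrees of freedom and moderated variances, with Benjamini-Hochberg adjustment over all genes tested and a threshold of 0.05. The fit was checked on simulated data. Replicate numbers did not pair the arrays. Of 1202 genes written in 53 lists, 93 were not matched on the array. The members and lists were chosen with earlier results of these data known. Named genes were the 12 largest rises and falls whose arrays did not overlap and whose call held without control 0 h replicate 3, up to 4 called members per direction of each list, and defining markers; Spi1, Hoxc13, Hoxa5 and Hoxa9 were added after their values were seen. Alternatives were other filters, scalings, probe set rules, array subsets, variance models and each array left out. Promoters came from RefSeq.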

Additional observations from a re-analysis of the deposited data

Results flagged for a closer look

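In control 0 h, replicate 3 stood apart from the other 3 arrays in the mean log2 level of 12 gene lists, by the ratio of its gap to the range of the group; chance gives such a gap in about 1 in 20 groups. It was high for macrophages (5.64), fat cells (7.14), Schwann cells and glia (6.6), intestine (11.54), simple epithelium (8.79), liver (7.09), antigen presentation (9.55), interferon-stimulated genes (6.98) and cholesterol efflux (8.02). It was low for smooth muscle (8.71), YAP and SRF targets (12.15) and fatty acid synthesis (9.62). Among the named genes, the same gap was seen at 8 h for 8 genes in replicate 1, 4 in replicate 2 and 4 in replicate 4, and at 0 h for 1 gene in replicate 1, 2 in replicate 2, 25 in replicate 3 and 6 in replicate 4.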

How the results depend on the processing

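Every count of genes called higher or lower stayed within 1.5 times its value under all alternatives run. Leaving out 1 array gave 4690 to 5031 genes higher and 3144 to 3440 lower. With only the 8 arrays of control 8 h and control 0 h, 4047 genes were higher and 2776 lower. Quantile normalization repeated over the genes used moved the share of calls that were higher to 54.3%, and centring on the median to 62.7%, against 60.2%. The same replicate number did not mark arrays that deviate together (correlations of -0.02 to 0.1 in 4 pairs), and with the replicate number as a block 5064 genes were higher and 3383 lower. Leaving out the 6 arrays with intestinal transcripts, chosen after seeing the data, gave 4747 higher and 3301 lower. Averaging each gene's probe sets, 5 named genes that had been called changed sign: Pttg1 (0.02), Bub1b (0.15), Rpsa (0.07), Per2 (-0.02) and Col12a1 (-0.36). Of the other values of named genes under alternatives, 4707 were counted as unchanged, 84 lost the call and 5 gained it. A change of sign in a gene not called in the main fit was counted as unchanged. Among list medians, 948 moved by little and 108 by more.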
